A study of Mus musculus with 7 samples.

Results

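The response to trichostatin A (TSA) was followed in mouse embryonic fibroblasts that lack both p53 and Dnmt1 (p53-/- Dnmt1-/- cells). Its members were all 22626 probe sets of the array other than the 64 manufacturer's controls, read on 3 of the 7 arrays of the series. These were p53-/- Dnmt1-/- cells left untreated, exposed to TSA for 24 h, and exposed to TSA for 48 h. A response was counted only where a probe set moved in the same direction at both times. The other arrays held the same cells 2 weeks after TSA was taken away, and p53-/- cells that kept Dnmt1, untreated and at 24 h and 48 h of TSA. All 7 arrays therefore lack p53. Each group was 1 array, so nothing below has a replicate check, and the labels name no separate cultures or clones. The sources used here do not give the dose of TSA, the vehicle of the untreated cells, the way Dnmt1 was deleted, or the length of the exposure that preceded removal.

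Histone deacetylases remove acetyl groups from histone tails and are recruited to silenced promoters. TSA blocks the zinc-dependent deacetylases, and treated cells are known to gain histone acetylation, to switch on some silent genes and to slow their division. Dnmt1 copies CpG methylation onto newly made DNA, and methylated CpGs in turn attract proteins that bring deacetylases with them. Cells that have lost Dnmt1 therefore lose a layer of repression that deacetylases act through, and p53 is commonly removed alongside it because fibroblasts that lose Dnmt1 alone do not survive.

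Because this design concerns promoters that may be silenced through CpG methylation, the promoters of the 3 genes with the largest mean increases are shown for their CpG content. Each is the 250 bases before the start of the gene in RefSeq (build GRCm38.p6), read 5′ to 3′ on the strand of the gene, with every CG in capitals. The Tesc promoter lies at chr5:118027493-118027742 on the + strand and holds 26 CpGs, the Tex101 promoter at chr7:24672051-24672300 on the - strand with 14, and the Bex1 promoter at chrX:136215514-136215763 on the - strand with 4.
Tesc: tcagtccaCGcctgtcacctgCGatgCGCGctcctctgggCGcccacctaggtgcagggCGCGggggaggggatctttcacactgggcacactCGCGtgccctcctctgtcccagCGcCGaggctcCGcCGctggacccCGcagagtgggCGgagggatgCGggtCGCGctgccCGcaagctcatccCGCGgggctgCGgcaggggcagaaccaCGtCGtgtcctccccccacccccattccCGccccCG
Tex101: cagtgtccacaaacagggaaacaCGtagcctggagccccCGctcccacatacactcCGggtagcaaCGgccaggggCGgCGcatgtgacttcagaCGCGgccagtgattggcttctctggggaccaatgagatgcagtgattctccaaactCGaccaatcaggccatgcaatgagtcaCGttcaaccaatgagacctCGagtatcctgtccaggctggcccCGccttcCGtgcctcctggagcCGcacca
Bex1: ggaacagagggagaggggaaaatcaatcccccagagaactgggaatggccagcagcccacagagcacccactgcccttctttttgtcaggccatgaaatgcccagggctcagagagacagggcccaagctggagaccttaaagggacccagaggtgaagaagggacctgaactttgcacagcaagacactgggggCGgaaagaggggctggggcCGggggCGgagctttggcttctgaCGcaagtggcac
The promoters thus ran from CpG-rich to CpG-poor. Methylation was not measured in the series.

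Signals are the authors' MAS5 intensities, and differences are on the scale log2(signal + 11.4), on which the change of dim genes is understated. The offset of 11.4 is the 25th percentile of all signals on the 7 arrays, and the median of the same signals, 45.6, is used below as a mark between dim and bright. At least 2-fold means a difference of 1 or more on that scale. A gene with several probe sets is represented by the one with the highest mean over the 7 arrays, which gave 12393 genes.

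The response held more genes that were higher than lower. Of the 12393 genes, 187 were at least 2-fold higher at both times (1.51%) and 53 were at least 2-fold lower at both (0.428%). Over probe sets the counts were 290 (1.28%) and 108 (0.477%). At any size the balance was the other way, with 3974 genes higher at both times (32.1%) and 4613 lower at both (37.2%), so that the excess of higher genes lay among the large differences. The middle of the distribution hardly moved, with a median difference over all genes of -0.03 at 24 h and -0.02 at 48 h. Both times share the untreated array, so an error in that array moves both differences the same way.

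The 24 h array stood farther from the untreated array than the 48 h array did. At 24 h, 622 genes (5.02%) were at least 2-fold higher and 513 (4.14%) at least 2-fold lower. At 48 h the counts were 311 (2.51%) and 193 (1.56%). Over probe sets they were 993 (4.39%) and 968 (4.28%) at 24 h and 546 (2.41%) and 362 (1.6%) at 48 h. The SD of the differences over genes was 0.60 at 24 h and 0.46 at 48 h. Of the genes 1 (0.00807%), and of the probe sets 2 (0.00884%), were past 2-fold in opposite directions at the times. The 18S ribosomal RNA controls were also highest at 24 h, at 688.1, 2549.1 and 1292.1 at 0, 24 and 48 h for the 3' probe set and 223.7, 2039.0 and 601.5 for the 5' one. Their part in the differences was not tested. The 3' to 5' signal ratio of beta-actin, a sign of RNA integrity, was 1.14, 1.11 and 1.14 on the same arrays, and that of Gapdh 0.834, 0.864 and 0.895.

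**Figure D1:**
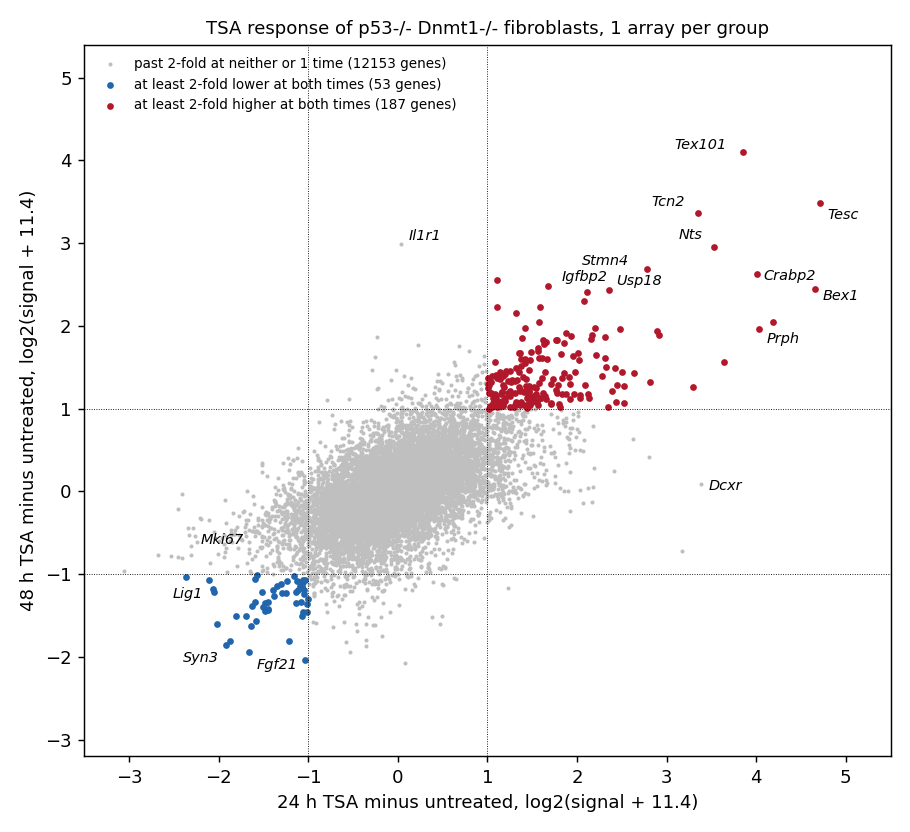
Difference from the untreated array at 24 h (x axis) and at 48 h of TSA (y axis) for 12393 genes, each on the log2(signal + 11.4) scale, with 1 array per group. Red points are the 187 genes at least 2-fold higher at both times and blue points the 53 lower at both, dotted lines mark 2-fold, and the red points reach far beyond the blue ones from their lines.

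No gene passed a test across the whole table. limma with both times pooled as 1 TSA group called 0 of 22626 probe sets after Benjamini-Hochberg adjustment (0%). Before adjustment 1806 probe sets had a p under 0.05 (7.98%), and the lowest adjusted p was 0.47. In that fit a real shift from 24 h to 48 h enters the error, and the spread comes from pairs of arrays that differ in time. The standard errors below come from this fit, and the folds are descriptions of single arrays. Of the 187 higher genes 179 had an unadjusted limma p under 0.05, and of the 53 lower genes 51, though the same arrays chose them. The boundary of the 2-fold rule was finely drawn. Fam181b (1.02 and 1.00 at 24 h and 48 h) and Ntn1 (1.44 and 1.00) lay just inside, and Cdkn2a, which encodes the cell cycle inhibitors p16 and p19Arf, was left out at 1.14 and 0.997. Among lower genes Kif22, a mitotic kinesin, was inside at -1.58 and -1.01, and Chac1, a glutathione-degrading stress gene, outside at -1.39 and -0.999.

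Many of the higher genes were dim before TSA. Of the 187, 72 had an untreated signal at or under 11.4, another 47 lay between 11.4 and 45.6, and 68 were already above 45.6. Over all signals of the 7 arrays these marks are the 25th percentile and the median. The 2-fold rule uses the untreated signal, so low untreated signals are favoured by the choice of genes. At both times 124 were above 45.6, and 56 had gone from at or under 45.6 to above it. Their median signal was 24.3 untreated, 121.2 at 24 h and 91.8 at 48 h. The difference was larger at 24 h for 119 of them and at 48 h for 67, and 11 were at least 4-fold higher at both times. The 53 lower genes had median signals of 50.8, 11.1 and 6.8, and 0 of them were 4-fold lower at both times. Of these 53, 17 were above 45.6 at both TSA times, so most of the lower calls end at dim signals. Low TSA signals are likewise favoured by the rule that chose them.

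The largest increase was that of Tesc, which encodes tescalcin, a calcium-binding EF-hand protein. Its signal was 5.5 untreated, 432.0 at 24 h and 178.8 at 48 h. The mean difference over both times was 4.10 ± 1.27 (SE, limma). A different probe set of Tesc read 1.8, 135.6 and 56.9 and gave 2.92. On both probe sets the untreated array was low and the 24 h array the highest. Bex1, a small X-linked protein of neural tissue, had the same shape, at 7.0, 452.5 and 89.0, with a mean difference of 3.55 ± 1.36.

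Other genes had much the same signal at 24 h and 48 h. Tex101, a surface protein of germ cells, read 4.1, 212.8 and 253.8, a mean difference of 3.98 ± 0.30. Tcn2, the carrier of vitamin B12 into cells, read 5.7, 163.7 and 164.4, which gave 3.36 ± 0.41. Stmn4, a tubulin-binding protein of the stathmin family found in neurons, read 3.8, 93.3 and 86.8, which gave 2.74 ± 0.72. In each of these the TSA arrays lay close together and far above the untreated array. Igfbp2, a secreted binding protein of insulin-like growth factors, differed in starting from a bright signal, at 403.9, 1789.1 and 2194.9, and its mean difference was 2.26 ± 0.23.

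In a further set the signal at 48 h was well under that at 24 h, though still above the untreated one. Blvrb, a biliverdin reductase of haem breakdown, read 26.0, 668.7 and 143.5. Prph, the neuronal intermediate filament peripherin, read 31.8, 695.7 and 157.2, but 3 other probe sets named for it were lower with TSA on average, at -0.62, -0.49 and -0.41. The increase of Prph thus rests on 1 probe set. Crabp2, which carries retinoic acid to its receptors, read 6.7, 279.3 and 100.3. Hcfc1r1, a partner of the transcriptional coregulator HCF-1, was bright throughout at 272.0, 2102.3 and 1072.9, and its mean difference was 2.42 ± 0.43, with 1.78 on another probe set. Crmp1, a mediator of axon guidance signals, read 16.1, 196.2 and 90.7. The remaining members of the 15 largest increases were Nts (neurotensin), Usp18, Lce1h and Gm5617, with mean differences of 3.25, 2.39, 2.28 and 2.60.

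All 15 of these genes were below their 48 h signal on the array made 2 weeks after TSA was removed. There Tesc read 16.9, Tex101 4.8, Bex1 13.5 and Nts 22.3. Igfbp2 read 314.0 and Hcfc1r1 258.6, both below their untreated signals. Lce1h was the nearest to its 48 h signal, at 35.3 against 39.6. The after-removal values are compared here with the same untreated array that both TSA differences use. The 15 genes were chosen partly for a high 48 h signal, so the count of 15 below that signal is not a test of reversal.

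**Figure D2:**
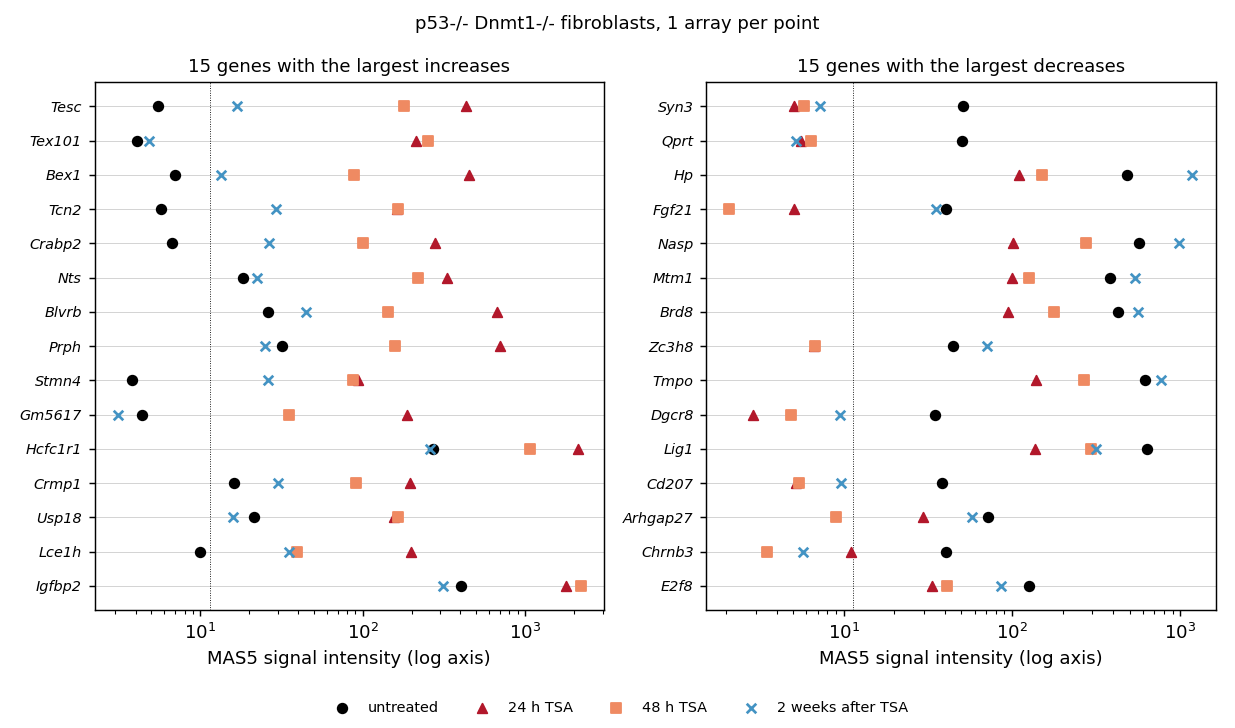
MAS5 signal intensity (log axis) of the 15 genes with the largest increases (left) and the 15 with the largest decreases (right) in p53-/- Dnmt1-/- cells, 1 array per point. Circles are untreated cells, triangles 24 h and squares 48 h of TSA, crosses 2 weeks after removal, and the dotted line marks the offset of 11.4; several decreases are under that line at 24 h and 48 h, whereas all 15 increases are above it at those times.

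The decreases were smaller, and among those that started bright were 4 genes with roles in DNA replication, chromatin, the nuclear lamina and E2F regulation. Lig1, the DNA ligase that joins Okazaki fragments, read 631.2 untreated, 137.8 at 24 h and 294.4 at 48 h, a mean difference of -1.59 ± 0.46. Nasp, a histone chaperone, read 571.0, 101.6 and 274.0, which gave -1.70 ± 0.55, with -0.92 on a dim second probe set. Tmpo, a nuclear lamina protein, read 619.5, 139.1 and 266.3, with -1.63 on this probe set and -1.55, -1.25 and 0.16 on 3 others. In all of these the 24 h array was the lowest and the 48 h array lay between it and the untreated one. E2f8, a repressor of E2F target genes, read 126.4, 33.3 and 41.3, which gave -1.51 ± 0.47.

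The acute-phase protein haptoglobin, Hp, read 481.3, 110.7 and 151.3, a mean difference of -1.81 ± 0.36, and 1178.7 after removal. Mtm1, the phosphoinositide phosphatase myotubularin, read 380.0, 100.6 and 126.0, and another probe set gave -1.20 and a further dim one -0.18. Brd8, a bromodomain subunit of an acetyltransferase complex, read 429.2, 94.7 and 178.6, with smaller differences of -0.64, -0.48 and -0.16 on its other probe sets. These genes were bright on the untreated array and lower on both TSA arrays.

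The rest of the 15 largest decreases started from dim or moderate signals. Syn3, a synapsin of synaptic vesicles, read 51.0, 5.1 and 5.8, which gave -1.89 ± 0.26. Fgf21, a metabolic hormone, read 40.6, 5.1 and 2.1. Dgcr8, the RNA-binding partner of Drosha in microRNA processing, read 34.9, 2.9 and 4.9. For Qprt, an enzyme of NAD synthesis, the mean difference was -1.84, and another probe set gave 0.33, so its direction differs between probe sets. Zc3h8, Cd207, Arhgap27 and Chrnb3 had mean differences of -1.63, -1.57, -1.53 and -1.51. On the after-removal array Syn3 (7.2), Qprt (5.2), Dgcr8 (9.5), Cd207 (9.6) and Chrnb3 (5.7) were near the low level of the TSA arrays. Zc3h8 (70.6), Fgf21 (35.5) and Arhgap27 (57.5) were above that level. These genes were chosen partly for a high signal on the untreated array, so a low after-removal value is not a test of a lasting decrease. Whether that untreated array read too high for them was not tested.

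A further group of genes stood apart from untreated cells at 1 time only, being past 2-fold at that time and within 1.5-fold at the other. Of the 12393 genes, 274 were higher at 24 h alone and 336 lower. For 48 h alone the counts were 63 and 87. Dcxr, a carbonyl and xylulose reductase, read 3.4, 143.8 and 4.3 at 0, 24 and 48 h. Ckb, brain creatine kinase, read 388.2, 1818.5 and 476.6. Esx1, an X-linked homeobox gene, read 6.7, 114.9 and 12.8. All 3 lay near the untreated signal at 48 h, as did the metallothionein Mt3 and Ramp3, a receptor partner of adrenomedullin, at 60.0 and 177.4 at 24 h and 4.5 and 31.8 at 48 h.

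Genes lower at 24 h alone included 4 of dividing cells. The proliferation antigen Mki67 read 309.0, 54.4 and 225.0. The spindle checkpoint gene Mad2l1 read 639.7, 117.7 and 438.9. The cohesin protector Sgo1 read 145.8, 17.3 and 124.7. Hmgb2, a chromatin protein of proliferating cells, was likewise at 813.6, 151.4 and 595.4, and Zfp101, a zinc finger gene, at 56.3, 1.4 and 55.0. At 48 h each of these was much nearer to its untreated signal than at 24 h.

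At 48 h alone the largest increase was in Il1r1, the interleukin-1 receptor, at 9.9, 10.5 and 158.4. Rspo1, a secreted amplifier of Wnt signals, read 147.2, 174.0 and 529.4. Neo1, the netrin receptor neogenin, read 115.7, 95.3 and 379.5. At 24 h these genes were within 1.5-fold of untreated. The others were Rhbdl3 and Zbtb7a, higher at 245.6 and 32.8 against 59.3 and 4.6 untreated. A dimmer second probe set of Rhbdl3 was already past 1.5-fold at 24 h, with differences of 0.82 at 24 h and 2.26 at 48 h. Lower at 48 h alone were the potassium channel Kcnn4 (88.4, 94.2 and 12.4) and the iodide transporter Slc5a5 (81.9, 52.9 and 12.9), followed by Rimklb, St14 and Osbpl10, which ended at 7.0, 4.2 and 7.1. Rimklb has 3 dimmer probe sets that did not show this, with mean differences of 0.88, 0.07 and -0.20.

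Lists of genes by function are described next by their counts and medians beside those of all genes, for which the medians were -0.03 at 24 h and -0.02 at 48 h. They were drawn up with earlier results of these data known. Of all 12393 genes, 5852 had a mean difference over both times above 0 and 6535 below 0. limma called 0 members of any list after adjustment. Of the 187 higher genes 38 belong to a list, and of the 53 lower genes 7. The share of all genes that belong to a list was not computed, so these counts do not show whether such genes are listed more often.

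Genes known to go up with deacetylase inhibitors were mostly higher. Of 26 with a probe set, 4 were at least 2-fold higher at both times and 0 lower, against 1.51% and 0.428% of all genes. A mean difference above 0 was found for 23 of the 26, against 5852 of all 12393 genes. The list's median was 0.71 at 24 h and 0.34 at 48 h. Clusterin, Clu, a secreted chaperone, read 521.0, 1655.0 and 1432.4, and Ccn2, a matricellular growth factor, 472.1, 1681.0 and 967.4. Cdkn2b, the CDK4 and CDK6 inhibitor p15, read 205.4, 422.9 and 520.1, and Crabp2 was the fourth. Cdkn1a, the CDK inhibitor p21, read 61.1, 162.2 and 43.4, so it was above the untreated signal at 24 h and below it at 48 h. A dimmer probe set of Cdkn1a gave 1.07 and 0.79 at the times. Of 16 genes that such inhibitors are known to lower, 0 were past 2-fold at both times, and the medians were -0.58 and -0.23. A mean below 0 was found for 11 of the 16, against 6535 of all 12393 genes.

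The targets of the drug and the proteins that work with them were near their untreated signals. Of 23 deacetylases, sirtuins and co-repressor subunits, 0 were past 2-fold at both times, and the medians were -0.12 and -0.08. The class I enzyme Hdac1 read 551.8, 688.6 and 568.2, Hdac2 68.5, 57.4 and 68.9, and Hdac3 415.2, 423.5 and 490.3. Hdac6, the tubulin deacetylase, was higher at 123.0, 235.2 and 172.1, and Hdac11 at 78.8, 143.3 and 124.9, both short of 2-fold, though a second probe set of Hdac11 read 68.1, 188.2 and 125.5. Hdac5 and Hdac7 had mean differences of -0.17 and -0.31, and Hdac9 was dim, at 3.1, 1.9 and 3.7. Sirt2, a sirtuin that TSA does not block, read 122.3, 371.3 and 216.4. Of 14 acetyltransferases and acetyl-lysine readers 0 were past 2-fold at both times, with medians of -0.20 and -0.11.

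Dnmt1 itself, which checks the labels by direction alone, read 206.5, 74.0 and 109.5 in these cells and 695.6 in untreated p53-/- cells, so some signal remained. The sources used here do not say whether its probes fall in the deleted part. Its difference with TSA was -1.35 at 24 h and -0.85 at 48 h, and a second probe set read 101.0, 13.2 and 47.3. The 11 genes of the DNA methylation machinery had medians of -0.56 and -0.03, with 0 past 2-fold at both times. Uhrf1, which guides Dnmt1 to replicating DNA, read 600.1, 266.8 and 349.6, and the methyl-CpG binding gene Mbd1 191.7, 356.2 and 380.1. These were named after their values were seen.

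Germ cell genes, many of them silenced by DNA methylation in body cells, had medians near 0 with TSA. Of 39 with a probe set, Tex101 was at least 2-fold higher at both times (1.51% of all genes) and 0 were lower (0.428%), and the medians were -0.05 and 0.06. Of the 39, 13 were above 45.6 on at least 1 of the 3 arrays, and 11 on the untreated one. Of 28 imprinted genes, set against the same shares, Ndn was higher at 69.6, 266.0 and 173.0, and Usp29 lower at 21.1, 3.5 and 3.9. Ndn, or necdin, is a growth suppressor of neurons expressed from the paternal allele. Its other probe sets gave mean differences from -0.09 to 1.79, and that of Usp29, near the floor, 0.07. The imprinted medians were 0.23 and 0.27. Over both times the imprinted median was 0.36, and 0.57 among members above 45.6 on at least 1 of the 7 arrays. A silent gene passes that filter only through an array where it is high, the TSA arrays included, so the 0.57 is no separate support.

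Among neuronal genes several were higher, most of them at 24 h. Of 47 with a probe set, 14 were at least 2-fold higher at 24 h (5.02% of all genes), 6 at 48 h (2.51%) and 6 at both (1.51%), and Syn3 was lower at both (0.428%). Those higher at both were Bex1, Crmp1, Prph, Stmn2, Stmn4 and Uchl1. Uchl1, a ubiquitin hydrolase abundant in neurons, read 171.0, 1009.3 and 702.9, and Stmn2, a tubulin regulator, 13.8, 134.1 and 49.8. A second probe set of Stmn2 read 25.4, 131.4 and 22.8, so it was higher at 24 h and not at 48 h. The number of neuronal genes above 45.6 was 12 untreated, 23 at 24 h and 17 at 48 h. Their medians were 0.22 and 0.16. The median over both times, also 0.22, was 0.56 among members above 45.6 on at least 1 of the 7 arrays, a filter that a silent gene passes only through an array where it is high.

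Genes of actin and the contractile apparatus also held a few higher members. Of 46, 7 were at least 2-fold higher at both times (1.51% of all genes) and 1 lower (0.428%), and the medians were 0.18 and 0.01. The median over both times was 0.14, and 0.52 among members that pass the same filter at 45.6. Cardiac actin, Actc1, read 81.5, 344.7 and 330.9, and skeletal actin, Acta1, 58.1, 195.8 and 160.5. The smooth muscle light chain Myl9 was bright, at 323.5, 874.1 and 862.6. Ankrd1, a mechanosensitive nuclear and sarcomere protein, read 325.0, 1012.3 and 857.9, and its second probe set gave 1.89. Desmin, Des, the muscle intermediate filament, read 127.3, 557.9 and 299.9, but its second probe set gave -0.42. Myl7 and Mylpf were higher but dim throughout, at most 41.9 and 39, and Myl1 was lower at 16.9, 1.9 and 1.4.

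Interferon-stimulated genes were higher at both times to about the same degree. Of 43, 31 were higher at both times at any size, against 32.1% of all genes, and 3 were lower. At least 2-fold higher at both times were 6 (1.51% of all genes), with 0 lower (0.428%), and the medians were 0.41 and 0.43. Usp18, which removes the ubiquitin-like ISG15 from proteins, read 21.4, 156.4 and 165.4. Bst2, or tetherin, which holds budding viruses at the cell surface, read 126.4, 400.1 and 558.5. Rtp4 read 60.9, 177.4 and 249.1. Oas1a, which makes the activator of RNase L, read 74.2, 160.9 and 210.7. The last 3 were higher at 48 h than at 24 h, as were the GTPase Igtp (48.3, 111.5 and 125.1) and Ifit2 (1.1, 13.9 and 19), which was dim on all 3 arrays. A dim second probe set of Rtp4 gave 0.32.

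The promoters of Bst2 and Oas1a are shown because both genes were higher and carry the core of the interferon-stimulated response element, the site bound by interferon-activated factors. They were chosen after their values were seen. Both are the 250 bases before the start in RefSeq (GRCm38.p6), at chr8:71537473-71537722 and chr5:120907526-120907775, both read 5′ to 3′ on the - strand, with the matches in capitals.
Bst2: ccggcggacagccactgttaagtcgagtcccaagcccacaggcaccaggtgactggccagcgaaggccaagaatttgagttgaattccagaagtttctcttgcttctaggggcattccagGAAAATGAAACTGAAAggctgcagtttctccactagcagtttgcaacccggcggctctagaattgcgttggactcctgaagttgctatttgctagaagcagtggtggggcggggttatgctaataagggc
Oas1a: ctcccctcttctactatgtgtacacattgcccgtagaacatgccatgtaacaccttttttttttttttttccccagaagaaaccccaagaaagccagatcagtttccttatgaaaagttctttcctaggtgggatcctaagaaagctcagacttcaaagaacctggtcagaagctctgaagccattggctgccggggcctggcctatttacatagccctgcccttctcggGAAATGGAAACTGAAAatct
The motif searched was GAAA, any 2 bases, then GAAA, on both strands, and in each of these promoters 2 matches overlap. They begin 130 and 124 bases before the start of Bst2 and 20 and 14 bases before that of Oas1a. Over windows of 300 bases around the start, 18 of 33 interferon genes in the promoter table held a match (54.5%), against 380 of all 9887 (3.84%) with 6.12% of the genes at least 2-fold higher at both times and 9.30% of those lower. Of the other higher interferon genes, Igtp held 1 match in such a window and Ifit2 held 0. Ifit1 and Ifit3, which were not at least 2-fold higher at both times, held 2 each. Motif matches are letters in a window and were not tested as sites.

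Antigen presentation genes were also higher on balance. Of 18, 15 were higher at both times at any size (32.1% of all genes) and 3 at least 2-fold (1.51%), with 0 at least 2-fold lower (0.428%). Their medians were 0.61 and 0.36. Cd74, the MHC class II invariant chain, read 100.1, 422.3 and 334.5. The class II chain H2-Ab1 was dim, at 4.3, 35.1 and 20.9, with 1.42 and 0.58 on its other probe sets. For the class I gene H2-D1, at 677.4, 2446.8 and 1551.5, the other probe sets ran from -0.96 to 2.19, and class I genes are near-identical copies that arrays separate poorly.

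DNA replication and mitosis genes had the lowest medians of all the lists, and the difference was mainly at 24 h. Of 43 replication genes, 28 were at least 2-fold lower at 24 h (4.14% of all genes) and 1, Lig1, at 48 h (1.56%). Their medians were -1.16 and -0.50, and 42 had a mean below 0, against 6535 of all 12393 genes. Of 39 mitosis genes, 34 were at least 2-fold lower at 24 h and 0 at 48 h, with medians of -1.50 and -0.44. Of the 82 genes together, 78 had a higher signal at 48 h than at 24 h. Securin, Pttg1, which holds separase inactive until anaphase, was singled out as the mitosis gene with a mean above 0, at 1069.4, 1606.5 and 1351.0. After removal the median difference of the 82 from the same untreated array was 0.22. In p53-/- cells the medians of the 82 were -0.68 at 24 h and -1.18 at 48 h, so there the later array was the lower one. That contrast between genotypes was not tested, and whether fewer dividing cells or less RNA per cell lay behind these values cannot be told apart in bulk RNA. The rule of both times counts 1 of these 82 genes.

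**Figure D3:**
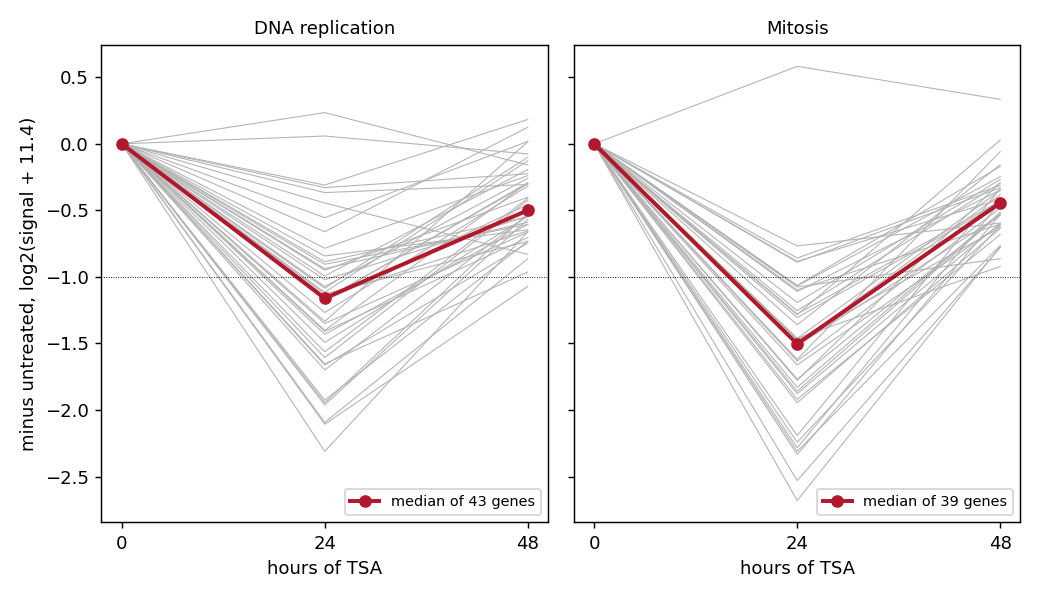
Difference from the untreated array (log2(signal + 11.4)) against hours of TSA for 43 DNA replication genes (left) and 39 mitosis genes (right), 1 array per time. Thin lines are single genes and the thick line is the median, which was -1.16 and -1.50 at 24 h and -0.50 and -0.44 at 48 h; the dotted line marks 2-fold lower.

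Retinoid, growth factor and matrix genes gave a few members each past 2-fold at both times, against 1.51% of all genes higher and 0.428% lower. Of 19 retinoid genes 3 were higher, namely Crabp2 and the neighbouring aldehyde dehydrogenases Aldh1a1 (139.9, 473.3 and 836.7) and Aldh1a7 (60.3, 136.2 and 167.8). Aldh1a1 makes retinoic acid, and Aldh1a7 is a close copy of it whose probes may share transcripts, which was not tested. Igfbp2 was the member past 2-fold at both times among 10 genes of IGF binding and IGF ligands. Of 50 matrix genes Col8a1 (27.9, 105.3 and 119.1) and the metalloproteinase inhibitor Timp1 (317.2, 884.8 and 705.5) were higher, with list medians of 0.05 and 0.34. A dim second probe set of Col8a1 gave 0.59. The chemokine Ccl2, of the acute-phase list of 22, read 329.1, 718.6 and 888.2, while Hp and ceruloplasmin, Cp (207.5, 61.2 and 94.0), were lower. The other probe sets of Cp, all dimmer, gave -0.80 to -0.15. Of 4 clustered histone genes, linker histone H1f2 was higher at 438.4, 924.1 and 901.2, with 1.32 and 0.14 on its other probe sets.

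Stress, p53 target, sterol and housekeeping lists had few or no members past 2-fold at both times, against 1.51% of all genes higher and 0.428% lower. Of 31 stress genes, Trib3, a pseudokinase of the integrated stress response, was lower at 328.2, 156.8 and 121.0, with -0.56 on a second probe set, and the medians were -0.04 and -0.13. Of 22 p53 targets 0 passed, with medians of 0.16 and 0.13. Of 17 cholesterol synthesis genes 0 passed, and 3 were at least 2-fold lower at 24 h, where the median was -0.42, against -0.02 at 48 h. Among 20 genes of CDK inhibitors and G1 cyclins, Cdkn2b was the member past 2-fold. For 20 glycolysis and scaling genes the medians were 0.00 and -0.16, with 0 past 2-fold at both times. Histones made outside S phase gave 0 of 6.

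**Figure D4:**
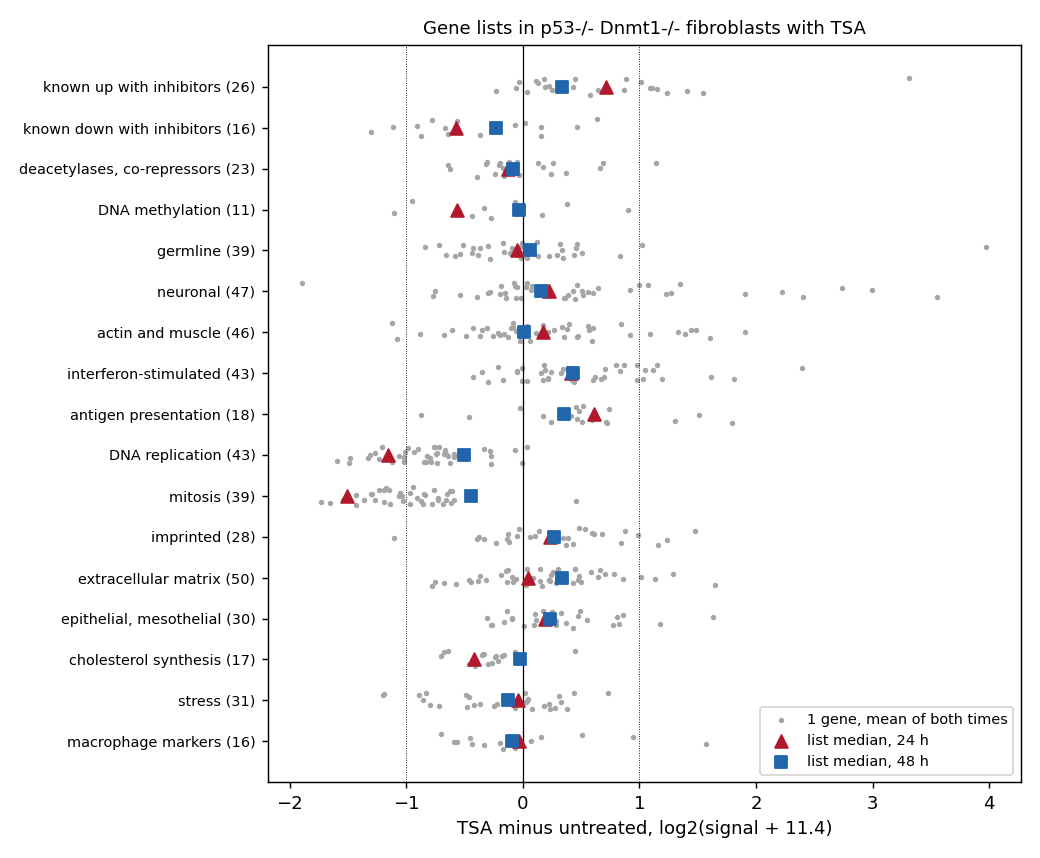
TSA minus untreated on the log2(signal + 11.4) scale for members of 17 of the gene lists in p53-/- Dnmt1-/- cells, with the number of genes in brackets. Grey points are single genes averaged over both times, triangles and squares are list medians at 24 h and 48 h, and dotted lines mark 2-fold; the replication and mitosis medians lie farthest to the left, at 24 h.

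Markers of the cells in the dish were also read. Of 16 fibroblast markers 14 were above 45.6 on at least 1 of the 3 arrays, among them vimentin, Vim, at 5044.9, 5732.6 and 4499.1, and the summed signal was 16798.5, 18885.8 and 20402.5. A few bright genes can carry such a sum. Of the 16 markers 8 had a mean difference above 0 and 8 below, and the list's medians were -0.02 and 0.24. Thy1, a surface protein of fibroblasts, was the marker at least 2-fold higher at both times (1.51% of all genes), at 346.2, 1209.0 and 827.8. Epithelial and mesothelial genes were also bright in these cells before TSA, with 20 of 30 above 45.6, including the keratins Krt8 (2081.3) and Krt18 (2916.7). The summed signal of the 30 was 19905 in these untreated cells and 974.8 in untreated p53-/- cells. For the 16 fibroblast markers the untreated sums were 16798.5 and 33591.7. The cells of the genotypes thus differed in these markers as well as in Dnmt1. The labels call the cells embryonic fibroblasts and name no epithelial type. Of these 30 genes the mesothelial surface protein Msln was at least 2-fold higher at both times (1.51% of all genes), at 511.7, 1156.4 and 1186.9. The medians of the 30 were 0.19 and 0.24.

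Markers of other cell types stayed mostly dim. The summed signal of 16 macrophage markers was 567.5, 623.9 and 571.8, with 5 above 45.6 on at least 1 array. Of the 16, 11 had a mean difference below 0 (6535 of all 12393 genes) and 5 above, with medians of -0.03 and -0.09. Cd68, a lysosomal protein of macrophages that other cells also make, went against most of the list. It was at least 2-fold higher at both times (1.51% of all genes), at 24.4, 129.0 and 69.6. The pan-leukocyte gene Ptprc was at 7.5, 11.9 and 7.7. For 12 endothelial markers the sums were 315.5, 278.6 and 325.4, and 0 were past 2-fold at both times. None of 6 erythroid markers was above 45.6, and of 10 adipocyte markers 0 passed. The part of other cell types in the Cd74 and H2-Ab1 values was not tested.

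Further probe sets of the same genes were read on the same 3 arrays, so they are not an independent check. Of the 187 higher genes 60 had a further probe set, 103 in all. Of these 103, 65 were higher at both times at any size, 16 were at least 2-fold higher at both and 0 were 2-fold lower at both, with a median of 0.24. Of 34 further probe sets of 17 lower genes, 22 were lower at both times, 4 at least 2-fold and 0 were 2-fold higher, with a median of -0.45. Over all genes the median of the further probe sets was -0.04. The representative is the brightest probe set of a gene on average, so the further ones are dimmer, and the offset understates the change of dim signals. The genes were also chosen by the difference of the representative itself. The part of either in the smaller medians was not tested.

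In p53-/- cells, which keep Dnmt1, 149 of all genes were at least 2-fold higher at both times (1.2%) and 92 lower (0.742%). Of the 187 higher genes 25 were among those 149 and 0 among the 92, and of the 53 lower genes 5 were among the 92 and 1 among the 149. These counts use arrays that the 2-fold rule did not. The cells of the genotypes also differed before TSA in epithelial and fibroblast markers, as given above. limma called 0 differences in the TSA response between genotypes after adjustment. Before adjustment 1097 probe sets had a p under 0.05, and 0.973 was the lowest adjusted p, so no gene is shown here to respond in 1 genotype only. The higher genes were not confined to those dim in untreated p53-/- cells. There 43 of the 187 were at or under 11.4 and 89 above 45.6. Crabp2 read 780.0 in untreated p53-/- cells, against 6.7 in untreated p53-/- Dnmt1-/- cells, and Aldh1a1 1.8 against 139.9. With all genes cut into 4 equal groups by their untreated p53-/- signal, the share at least 2-fold higher at both times was 1.68%, 1.74%, 1.45% and 1.16% from the dimmest group to the brightest.

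Promoter content and position were read from RefSeq for the genes past 2-fold at both times. Promoters of 147 higher genes held a median of 15 CpGs in 300 bases, those of 43 lower genes 16, and all 9887 promoters 19. A GC box, GGGCGG on either strand, was in 63.3% of the higher, 41.9% of the lower and 61.0% of all promoters. The E2F site TTTCCCGC was in 5 of 37 replication promoters (13.5%), 0 of 32 mitosis promoters, 2.72% of the higher, 9.30% of the lower and 2.02% of all. Of the higher genes 5 of 187 were X-linked (2.67%), as were 3 of 53 lower genes (5.66%) and 402 of 12377 placed genes (3.25%). In 6 pairs both higher genes were next to each other among measured genes, namely Ang and Rnase4, Aldh1a1 and Aldh1a7, Lipa and Ifit2, Ankrd1 and Ppp1r3c, Procr and Mmp24, and Epha1 and Tcaf2. The number of such pairs in a random draw of as many genes was not computed, so the pairs are listed by position alone.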

How the data were processed

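Total RNA of 7 samples of mouse embryonic fibroblasts was measured on Affymetrix arrays, 1 array a sample. The deposited intensity values are linear MAS5 signals, per the submitters' processing notes. MAS5 turns the probe intensities of each probe set into 1 signal after background correction. The sources used here give neither its version nor its scaling target. On every array the deposited intensities had nearly the same 2% trimmed mean (150.05 to 150.06), so the arrays had already been scaled. Detection calls were not used here.

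Of 22690 probe sets, 64 controls were left out. An annotation table of the array listed 21071 of the other 22626 probe sets, 20380 with 1 gene symbol and 691 with several, and did not list 1555. Symbols of 20351 were updated through Entrez identifiers to RefSeq (GRCm38.p6), and probe sets with several symbols named no gene. Trp53 and H1f0 were not analysed here.

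Signals were analysed as log2(signal + 11.4) with no filter, by the size rule of 2-fold at both times. limma 3.58.1 in R 4.3.3 was fitted over all 7 arrays in 5 groups, with an intensity trend, 2 residual and 3.47 prior degrees of freedom, and Benjamini-Hochberg adjustment at 0.05. Lone arrays are taken there to have the spread of the pooled TSA pairs, and the p-values rest on the spread among single arrays, part of which may be technical. The fit was tested on simulated data. Precision is limited by the number of arrays. Alternatives were other offsets, a filter at the pooled median, other scalings, other folds, single times and left-out arrays.

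Genes named are the 15 largest mean differences in each direction among those past 2-fold at both times, the 5 largest in each direction at 1 time only, list members past 2-fold at both times, Dnmt1, Cdkn1a and the deacetylases. Others were named after their values were seen. The comparison, the members and the lists were chosen with earlier results of these data known.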

Additional observations from a re-analysis of the deposited data

Results flagged for a closer look

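Tex101, Hp and Dgcr8 moved in opposite directions in the genotypes at both times. Tex101 read 7.4, 2.8 and 1.8 at 0, 24 and 48 h of TSA in p53-/- cells, and its TSA difference was 4.43 higher in p53-/- Dnmt1-/- cells on the log2(signal + 11.4) scale. Hp read 2.1, 2.4 and 7.5 in p53-/- cells, a difference between genotypes of -2.06, and Dgcr8 read 13.1, 16.7 and 18, a difference of -1.83. The limma test of the difference gave an adjusted p of 0.973 for each, so none passed. All of these p53-/- signals are dim.

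The 18S ribosomal RNA controls, which no comparison of genes uses, were higher at 24 h than in untreated cells. The 24 h signal was 3.7 times the untreated one at the 3' probe set and 9.11 times at the 5' one.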

How the results depend on the processing

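The counts of probe sets past 2-fold at both times, 290 higher and 108 lower, moved with the offset, the fold and the times, and were 84 and 10 at an offset at the pooled median and 900 and 669 at an offset of 1. A fold of 1.5 gave 1056 and 906, and a fold of 3 gave 47 and 9. At 24 h only they were 993 and 968, and at 48 h only 546 and 362. Keeping probe sets above the pooled median left 240 and 53, and 1 probe set per gene above it 176 and 32. Quantile normalization gave 313 and 108, and a common median 294 and 107. Of the 187 higher and 53 lower genes, 61 and 8 were still past 2-fold at the larger offset. After quantile normalization 184 and 45 were, and at a common median 184 and 48. At an offset of 1 all 187 and 53 remained, which was fixed in advance because a smaller offset widens every difference. limma called 0 probe sets in each fit that was run, those without the 24 h, the 48 h or the after-removal array included, with 1622 to 2891 of 22626 at an unadjusted p under 0.05, 1136 of the 14012 above the pooled median and 736 of the 9390 with 1 probe set per gene above it, and the lowest adjusted p ran from 0.0836 to 0.675. The adipocyte list's median of 0.12 became -0.16 among probe sets above the pooled median, where fewer genes are tested. No paired analysis was possible because each group is 1 array and the labels carry no replicate numbers. The cause of the other differences was not tested, and dim signals limit the lower calls most.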
